A study of Homo sapiens with 6 samples.

Results

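The 10 genes described here are Wnt ligands, receptors, inhibitors and a nuclear factor, and they were chosen by symbol from the 59962 genes in the deposited table. The choice was made with earlier results of these data known, so counts set beside shares of all tested genes are descriptive only. The 10 genes are the ligands WNT7B and WNT10A, the receptors LRP5, LRP6 and LGR4, the inhibitors DKK1, AXIN2, RNF43 and ZNRF3, and the transcription factor TCF7. Transcript abundance was measured by RNA-seq in 6 libraries of CFPAC-1, an established human pancreatic ductal adenocarcinoma line. Values are TPM, a transcript abundance scaled for gene length and to the same total in each library, so levels of different genes can be set side by side. There were 3 groups of 2 libraries each. The control group carried a guide RNA against LACZ, a bacterial gene that human cells lack. The other groups carried sgRNA1 or sgRNA3, each directed at SULF2, an extracellular sulfatase that removes sulfate groups from heparan sulfate chains. Sample labels describe the groups as LACZ knockdown and as SULF2 knockdown using sgRNA1 or sgRNA3. All groups therefore came from the same line and carried a guide. The sources used here do not say if the guides act by cutting DNA or by repression, if a group is 1 clone, or if replicate libraries are separate cultures. The p-values then measure only the spread between these libraries, which may be technical. Sequencing depth is unknown because TPM keeps none.

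Wnt proteins are secreted lipid-modified ligands that bind a frizzled receptor together with LRP5 or LRP6. Binding stops the destruction complex from degrading beta-catenin, which then enters the nucleus and activates genes through factors of the TCF and LEF family. Secreted DKK1 blocks LRP5 and LRP6, the membrane ubiquitin ligases RNF43 and ZNRF3 remove frizzled receptors from the cell surface, and AXIN2 rebuilds the destruction complex. R-spondins, acting through LGR receptors, relieve the block by RNF43 and ZNRF3. Several of the inhibitors are themselves targets of beta-catenin and act as feedback. RNF43 is a recurrently mutated gene in pancreatic cancer. Heparan sulfate at the cell surface binds Wnt ligands, and sulfatases such as SULF2 can alter that binding.

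TCF and LEF factors recognise a short core motif, searched here as CTTTGAA or CTTTGAT on both strands of the 250 bases before each annotated start. The RefSeq promoter table (GRCh38.p14) held 8 start sites for 6 of the 10 genes. It gave windows for DKK1 and TCF7, and those printed below are shown because both genes differed from the control with a guide. The windows are on the plus strand, at chr10:52314031-52314280 for DKK1 and at chr5:134123368-134123617 for an internal start of TCF7, and capitals mark a motif match.
DKK1: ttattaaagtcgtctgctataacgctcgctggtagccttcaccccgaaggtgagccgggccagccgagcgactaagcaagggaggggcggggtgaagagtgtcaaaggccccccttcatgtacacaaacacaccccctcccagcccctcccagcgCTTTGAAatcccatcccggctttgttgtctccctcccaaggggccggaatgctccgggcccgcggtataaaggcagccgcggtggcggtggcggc
TCF7: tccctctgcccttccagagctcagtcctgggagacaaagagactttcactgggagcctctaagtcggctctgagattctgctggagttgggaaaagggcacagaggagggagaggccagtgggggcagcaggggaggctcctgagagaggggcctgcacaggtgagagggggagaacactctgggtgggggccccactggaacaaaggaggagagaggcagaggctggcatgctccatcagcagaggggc
The DKK1 window held CTTTGAA once, on the plus strand, with its first base at position -95 from the start. It was the only match among the 8 windows, whereas 2086 of all 35116 promoter windows of that length (5.94%) held a match. The DKK1 window also overlaps an exon of PRKG1-AS1 on the other strand, and the TCF7 window shown lies between TCF7 exons in GENCODE 29. A further TCF7 window, at chr5:134115363-134115612, overlaps a TCF7 exon, held no match and is not shown. The G and C content was 62.8% in the DKK1 window and 62.0% in the TCF7 window shown. A match of these letters is a description, not a binding site.

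The target of the guides was lower in both guide groups. SULF2 transcripts measured 25.69 and 22.52 TPM in LACZ libraries, at 8.98 and 12.81 in the sgRNA1 libraries, and at 10.07 and 9.24 in the sgRNA3 libraries. The adjusted p (limma, Benjamini-Hochberg over all genes tested) was 0.0338 with sgRNA1 and 0.0215 with sgRNA3. Whether these SULF2 calls hold with a library left out was not tested. Transcripts reached at least 1 TPM in 8 of 9 epithelial and ductal markers in every library, while CFTR, a ductal ion channel, was at 0.38 TPM or lower. No acinar or islet marker reached that level in every library. Among 6 fibroblast markers, COL3A1 was at most 0.02 TPM and DCN at most 0.11, but the summed level, nearly all COL1A1, was 77.5 to 77.9 TPM with LACZ, 58.6 to 60.5 with sgRNA1 and 37.6 to 41.7 with sgRNA3. Of 5 leukocyte markers PTPRC was at most 0.1 TPM, and the summed level, mostly CD68, was 91.7 to 95.5, 96.1 to 101 and 107 to 110 TPM. Of 4 endothelial markers, 1 reached 1 TPM in every library, and their sum stayed between 4.33 and 5.25 TPM.

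All 10 genes passed the filter of at least 1 TPM in at least 2 libraries, as did 16610 genes in all. In the control libraries DKK1 was the most abundant at 166 TPM, above LRP5 at 126 and WNT7B at 74.6. These 3 genes stood at the 94.8, 92.9 and 87.4 percentiles of the tested genes. WNT10A and LGR4 followed at 23.7 and 21.1 TPM, LRP6, TCF7 and RNF43 lay between 7.89 and 9.28, ZNRF3 was at 5.32, and AXIN2 was last at 3.32 TPM. Neighbours in this order did not overlap between libraries, except LRP6 and TCF7. The order was altered at both ends with the guides: LRP5 stood above DKK1 with sgRNA1, and TCF7 stood below RNF43 with sgRNA1 and below ZNRF3 with sgRNA3. WNT10A and LGR4 overlapped in both guide groups.

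**Figure D1:**
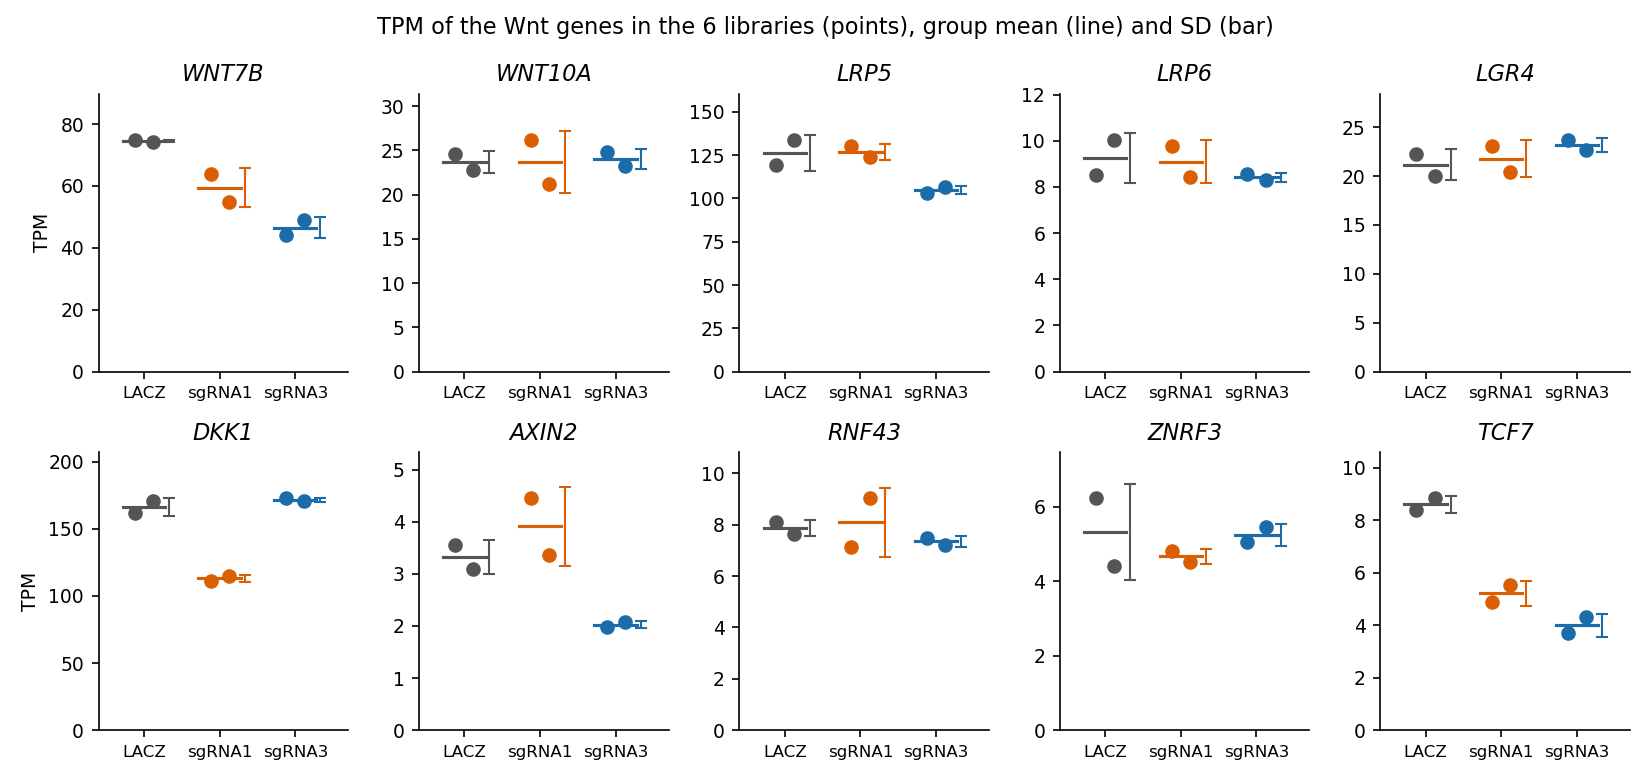
TPM of each of the 10 Wnt genes in each of the 6 libraries, grouped by guide, with 1 point per library, a line at the group mean, a bar of 1 SD either way, and a linear axis from 0 for each gene. WNT7B and TCF7 are lower in all 4 guide libraries than in both LACZ libraries, and DKK1 is lower with sgRNA1 but not with sgRNA3.

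Of the 10 genes, DKK1 fell with sgRNA1, and WNT7B and TCF7 fell with sgRNA3; none rose against LACZ. That is 1 of 10 with sgRNA1, where 6.0% of all tested genes passed, and 2 of 10 with sgRNA3, where 9.08% passed. No gene of the 10 passed with both guides in the same direction by limma, against 4.05% of all tested genes. At an unadjusted limma p under 0.05 stood 3 of the 10 with sgRNA1 and 4 with sgRNA3, all lower, beside 24.6% and 28.0% of all tested genes. WNT7B and TCF7, 2 of the 10, did so with both guides, beside 15.6% of all tested genes with the same sign. The median log2 change of the 10 was -0.02 with sgRNA1 and -0.11 with sgRNA3, beside -0.07 and -0.05 for all tested genes. The guides were compared with the same LACZ libraries, so these counts are not independent. With 2 libraries a group, groups often fail to overlap: 3 of 10 genes did not overlap between sgRNA1 and LACZ, as did 55.0% of all tested genes, and 6 of 10 between sgRNA3 and LACZ, as did 59.1%. All 4 guide libraries lay on one side of both LACZ libraries for 2 of the 10 genes, WNT7B and TCF7, and for 36.6% of all tested genes.

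**Figure D2:**
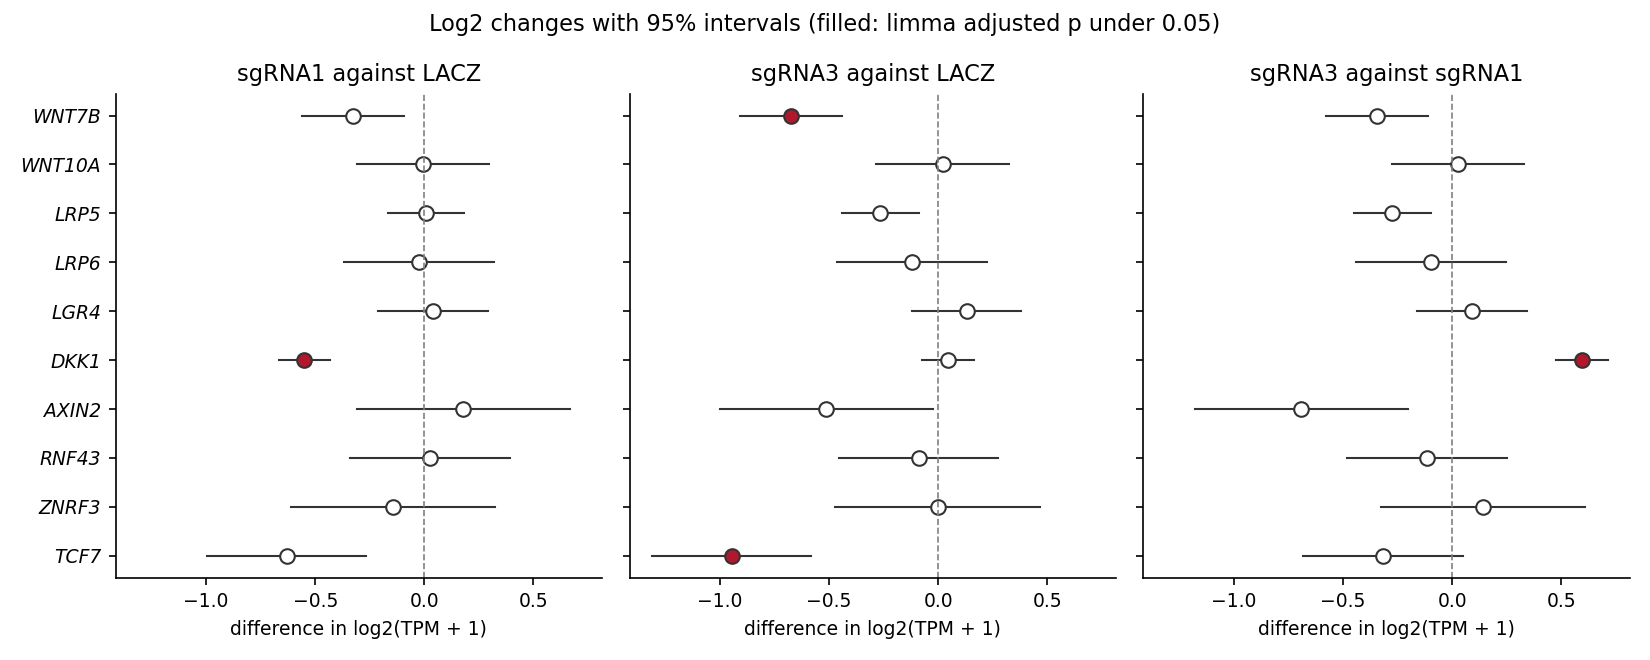
Difference in log2(TPM + 1) for each of the 10 genes in the 3 comparisons, with bars giving the 95% confidence interval of the limma fit and filled points an adjusted p under 0.05. The filled points are DKK1 for sgRNA1 against LACZ, WNT7B and TCF7 for sgRNA3 against LACZ, and DKK1 for sgRNA3 against sgRNA1.

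WNT7B (ENSG00000188064, GRCh38 chromosome 22, 45920362 to 45977129, minus strand) encodes a ligand best known from lung, kidney and brain vessel development. It was at 74.89 and 74.35 TPM with LACZ, at 63.91 and 54.95 with sgRNA1, and at 44.16 and 48.85 with sgRNA3. No library of one group overlapped another group, and the order was LACZ, sgRNA1, sgRNA3 from high to low. The mean with sgRNA3 was 62.3% of the LACZ mean, a log2 change of -0.67 ± 0.09 (SE, n = 2 per group, limma adjusted p 0.0189). With sgRNA1 the mean was 79.6% of LACZ, and the log2 change of -0.33 did not pass (limma adjusted p 0.107, 95% interval -0.56 to -0.09). Nor did the difference between the guides, -0.35 (limma adjusted p 0.203). The sgRNA3 call was lost at an adjusted p of 0.104 without LACZ replicate 1, 0.107 without LACZ replicate 2, 0.101 without sgRNA3 replicate 1 and 0.0763 without sgRNA3 replicate 2. The summed fibroblast markers, nearly all COL1A1, took the same order of groups as WNT7B, and their part in the result was not tested. COL1A2 was also lowest with sgRNA3 (0.76 and 0.50 TPM). LUM did not fall (1.66 and 1.58 TPM with LACZ, 1.79 and 1.82 with sgRNA3). COL3A1, DCN and PDGFRB were at most 0.02, 0.11 and 0.65 TPM. In these bulk libraries, fewer cells that express a gene and less RNA per cell cannot be told apart.

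WNT10A (ENSG00000135925, chromosome 2, 218880363 to 218899581, plus strand), a ligand known for its role in teeth, hair and skin, did not differ between groups beyond its spread. It was at 24.60 and 22.82 TPM with LACZ, 26.20 and 21.20 with sgRNA1, and 24.82 and 23.28 with sgRNA3. The groups overlapped throughout. The 95% intervals of its log2 change were -0.31 to 0.30 with sgRNA1 and -0.28 to 0.32 with sgRNA3, with limma adjusted p of 0.979 and 0.935.

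WNT7B and WNT10A carried most of the Wnt ligand RNA in these cells. Over the 19 human Wnt genes the summed level was 118.81 and 105.28 TPM with LACZ, 97.43 and 83.88 with sgRNA1, and 79.29 and 79.28 with sgRNA3. WNT7B made up 63.03% and 70.62% of that sum with LACZ, 65.60% and 65.51% with sgRNA1, and 55.69% and 61.62% with sgRNA3. WNT10A held 20.71% and 21.68% with LACZ, 26.89% and 25.27% with sgRNA1, and 31.30% and 29.36% with sgRNA3. The ratio of WNT7B to WNT10A was thus 3.04 and 3.26 with LACZ, 2.44 and 2.59 with sgRNA1, and 1.78 and 2.098 with sgRNA3, and no group overlapped another. Of the other 17 ligands, 14 did not reach 1 TPM in any library and 5 of these were listed at 0 in every library. WNT2B reached 11.17 TPM in the first LACZ library and was at 1.78 or lower in the other 5, so the higher ligand sum of that library includes it.

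**Figure D3:**
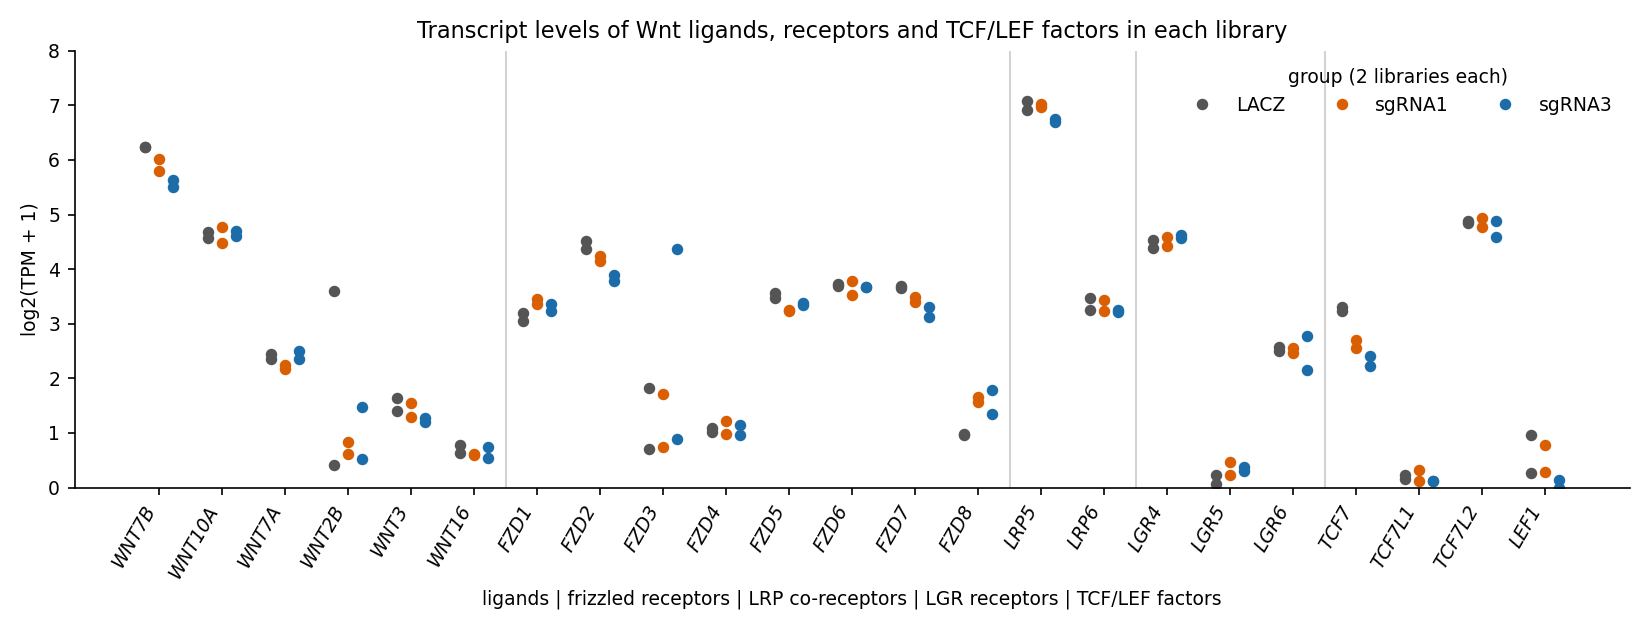
Level of Wnt ligands, frizzled receptors, LRP coreceptors, LGR receptors and TCF and LEF factors as log2(TPM + 1), with 1 point per library coloured by group. WNT7B and WNT10A are the highest ligands shown, LRP5 lies above LRP6, TCF7L2 lies above TCF7, and WNT2B and FZD3 each have 1 library far above the other 5.

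LRP5 (ENSG00000162337, chromosome 11, 68312609 to 68449275, plus strand) and LRP6 (ENSG00000070018, chromosome 12, 12116025 to 12267012, minus strand) are the coreceptors that DKK1 blocks. LRP5 was at 119.05 and 133.77 TPM with LACZ, 130.04 and 123.72 with sgRNA1, and 103.01 and 106.62 with sgRNA3. Both sgRNA3 libraries were below the other 4, yet the log2 change of -0.27 against LACZ did not pass (limma adjusted p 0.0774, 95% interval -0.44 to -0.09). With sgRNA1 the log2 difference was 0.01 (limma adjusted p 0.963). LRP6 was at 8.51 and 10.04 TPM with LACZ, 9.76 and 8.43 with sgRNA1, and 8.56 and 8.29 with sgRNA3, and the groups overlapped. The 95% intervals of its log2 difference from LACZ were -0.37 to 0.32 with sgRNA1 and -0.46 to 0.22 with sgRNA3, with limma adjusted p of 0.935 and 0.612. LRP5 transcripts exceeded LRP6 transcripts 12.03 to 14.7 times per library.

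LGR4 (ENSG00000205213, chromosome 11, 27365961 to 27472775, minus strand), a receptor for R-spondins, was at 22.26 and 20.03 TPM with LACZ, 23.09 and 20.41 with sgRNA1, and 23.70 and 22.71 with sgRNA3. A log2 difference of 0.04 with sgRNA1 had a limma adjusted p of 0.855. The difference of 0.13 with sgRNA3 had a limma adjusted p of 0.454, although both libraries were above both LACZ libraries. LGR4 made up 78.8% to 86.5% of the summed TPM of LGR4, LGR5 and LGR6. The 4 R-spondin genes that encode its ligands were together at 0 to 0.7 TPM.

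DKK1 (ENSG00000107984, chromosome 10, 52314296 to 52318042, plus strand) was lower with sgRNA1 than with LACZ or sgRNA3. It was at 161.80 and 170.85 TPM with LACZ, 111.47 and 115.02 with sgRNA1, and 172.75 and 170.44 with sgRNA3. Both sgRNA1 libraries were below the other 4, and sgRNA3 overlapped LACZ. The sgRNA1 mean was 68.1% of LACZ, a log2 change of -0.55 ± 0.05 (SE, n = 2 per group, limma adjusted p 0.00632). The sgRNA3 mean was 103.2% of LACZ, with a log2 difference of 0.05 (limma adjusted p 0.580, 95% interval -0.07 to 0.16). The test between the guides gave 0.60 ± 0.05 (SE, n = 2 per group, limma adjusted p 0.0189), so DKK1 was higher with sgRNA3 than with sgRNA1. DKK1 was the only one of the 10 to pass in that comparison, in which 0.578% of all tested genes passed. Leaving out any 1 library kept the sgRNA1 call, with adjusted p of 0.0321 to 0.0472. The difference between the guides had an adjusted p of 0.0795 without LACZ replicate 1, 0.077 without LACZ replicate 2, 0.0924 and 0.107 without sgRNA1 replicate 1 or 2, and 0.104 and 0.117 without sgRNA3 replicate 1 or 2. The number of DKK1 transcripts per LRP6 transcript was 19.0 and 17.0 with LACZ, 11.4 and 13.6 with sgRNA1, and 20.2 and 20.6 with sgRNA3. PRKG1-AS1, which overlaps a DKK1 exon on the other strand, was at 1.36 TPM or lower in every library.

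AXIN2 (ENSG00000168646, chromosome 17, 65528563 to 65561647, minus strand), a scaffold of the destruction complex and a widely used readout of beta-catenin activity, was at 3.55 and 3.09 TPM with LACZ. It was at 4.45 and 3.37 TPM with sgRNA1 and at 1.98 and 2.07 with sgRNA3. With sgRNA1 the log2 difference was 0.18 (limma adjusted p 0.622, 95% interval -0.31 to 0.67). Both sgRNA3 libraries were below the other 4. The log2 change with sgRNA3, -0.51, did not pass (limma adjusted p 0.164), and its 95% interval ran from -1.0 to -0.02. The difference between the guides, -0.69, did not pass either (limma adjusted p 0.211, 95% interval -1.18 to -0.20). These differences were -0.24 and -0.34 with a pseudocount of 5, and -0.68 and -0.90 with a pseudocount of 0.1. In TPM the sgRNA3 mean was 61.0% of the LACZ mean and 51.8% of the sgRNA1 mean.

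RNF43 (ENSG00000108375, chromosome 17, 58352500 to 58417595, minus strand) was at 8.11 and 7.66 TPM with LACZ, 7.15 and 9.03 with sgRNA1, and 7.49 and 7.21 with sgRNA3. ZNRF3 (ENSG00000183579, chromosome 22, 28883592 to 29057487, plus strand) was at 6.22 and 4.41 TPM with LACZ, 4.80 and 4.52 with sgRNA1, and 5.04 and 5.45 with sgRNA3. Both ubiquitin ligases had log2 differences from LACZ between -0.14 and 0.03, and their limma adjusted p ran from 0.685 to 0.998. The intervals left room for changes of either sign, for example -0.61 to 0.33 for ZNRF3 with sgRNA1. An exon of RNF43 overlaps SUPT4H1, which was at 72.8 to 88.8 TPM on the same strand, so reads in the overlap cannot be told apart.

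TCF7 (ENSG00000081059, chromosome 5, 134114711 to 134151865, plus strand), a DNA-binding partner of beta-catenin also known as TCF1, was lower in all 4 guide libraries than in both LACZ libraries. It was at 8.39 and 8.84 TPM with LACZ, 4.88 and 5.55 with sgRNA1, and 3.69 and 4.30 with sgRNA3. As for WNT7B, no group overlapped another, and LACZ was highest and sgRNA3 lowest. The sgRNA3 mean was 46.4% of LACZ, a log2 change of -0.95 ± 0.15 (SE, n = 2 per group, limma adjusted p 0.0245). With sgRNA1 the mean was 60.5% of LACZ, and the log2 change of -0.63 did not pass (limma adjusted p 0.0711, 95% interval -1.0 to -0.27). The difference between the guides was -0.32 (limma adjusted p 0.384). A two-sided exact permutation test of all 4 guide libraries against LACZ gave p = 0.0667, the smallest that this design allows, and the same test gave p = 0.133 for WNT7B. With a pseudocount of 5 in place of 1 the log2 change of TCF7 was -0.42 with sgRNA1 and -0.60 with sgRNA3 (limma adjusted p 0.0646 and 0.0245). Without a library the sgRNA3 call was lost at an adjusted p of 0.109 (LACZ replicate 1), 0.119 (LACZ replicate 2), 0.117 (sgRNA3 replicate 1) and 0.0876 (sgRNA3 replicate 2). COL1A1, the most abundant of the fibroblast markers, again ran in the same order of groups, but LUM did not. The part of COL1A1 in the TCF7 result was not tested.

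TCF7 was a minor part of its family in these cells. TCF7L2 held 74.5% to 88.3% of the summed TPM of TCF7, TCF7L1, TCF7L2 and LEF1. The share of TCF7 was 22.63% and 23.34% with LACZ, 13.92% and 17.03% with sgRNA1, and 11.42% and 15.52% with sgRNA3. TCF7L2 itself was at 27.63 and 28.65 TPM with LACZ, 29.71 and 26.23 with sgRNA1, and 28.52 and 23.22 with sgRNA3, and did not pass with either guide (limma adjusted p 0.970 and 0.562). SKP1, whose exons overlap TCF7 on the other strand, was at 626.58 and 607.36 TPM with LACZ, 690.13 and 721.20 with sgRNA1, and 735.38 and 731.80 with sgRNA3. The sources used here do not give the strandedness of the libraries, so reads from the overlap of TCF7 and SKP1 cannot be told apart. GENCODE 29 lists 24 transcripts of TCF7, 14 of them protein-coding, and the gene-level values do not separate them.

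Between the guides, 6 of the 10 genes did not overlap, as did 47.0% of all tested genes. WNT7B, LRP5, AXIN2 and TCF7 were lower in both sgRNA3 libraries than in both sgRNA1 libraries, and DKK1 and ZNRF3 were higher. Only DKK1 passed the test of that difference by limma.

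Other genes of the pathway were read from 8 lists arranged by role, also chosen with earlier results of these data known. The lists held 96 genes, of which 58 were tested. With sgRNA1, 3 rose and 5 fell, where 6.0% of all tested genes passed, and with sgRNA3, 4 rose and 6 fell, where 9.08% passed. With median-of-ratios scaling the sgRNA1 split was 6 higher and 5 lower, and the sgRNA3 split was again 4 and 6. CCND1 rose with both guides, and MYC, TLE1 and PYGO2 fell with both, beside 4.05% of all tested genes that passed with both in the same direction. Among these genes only MYC kept both calls whichever library was left out. The median log2 change of the tested genes was -0.10 with either guide.

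**Figure D4:**
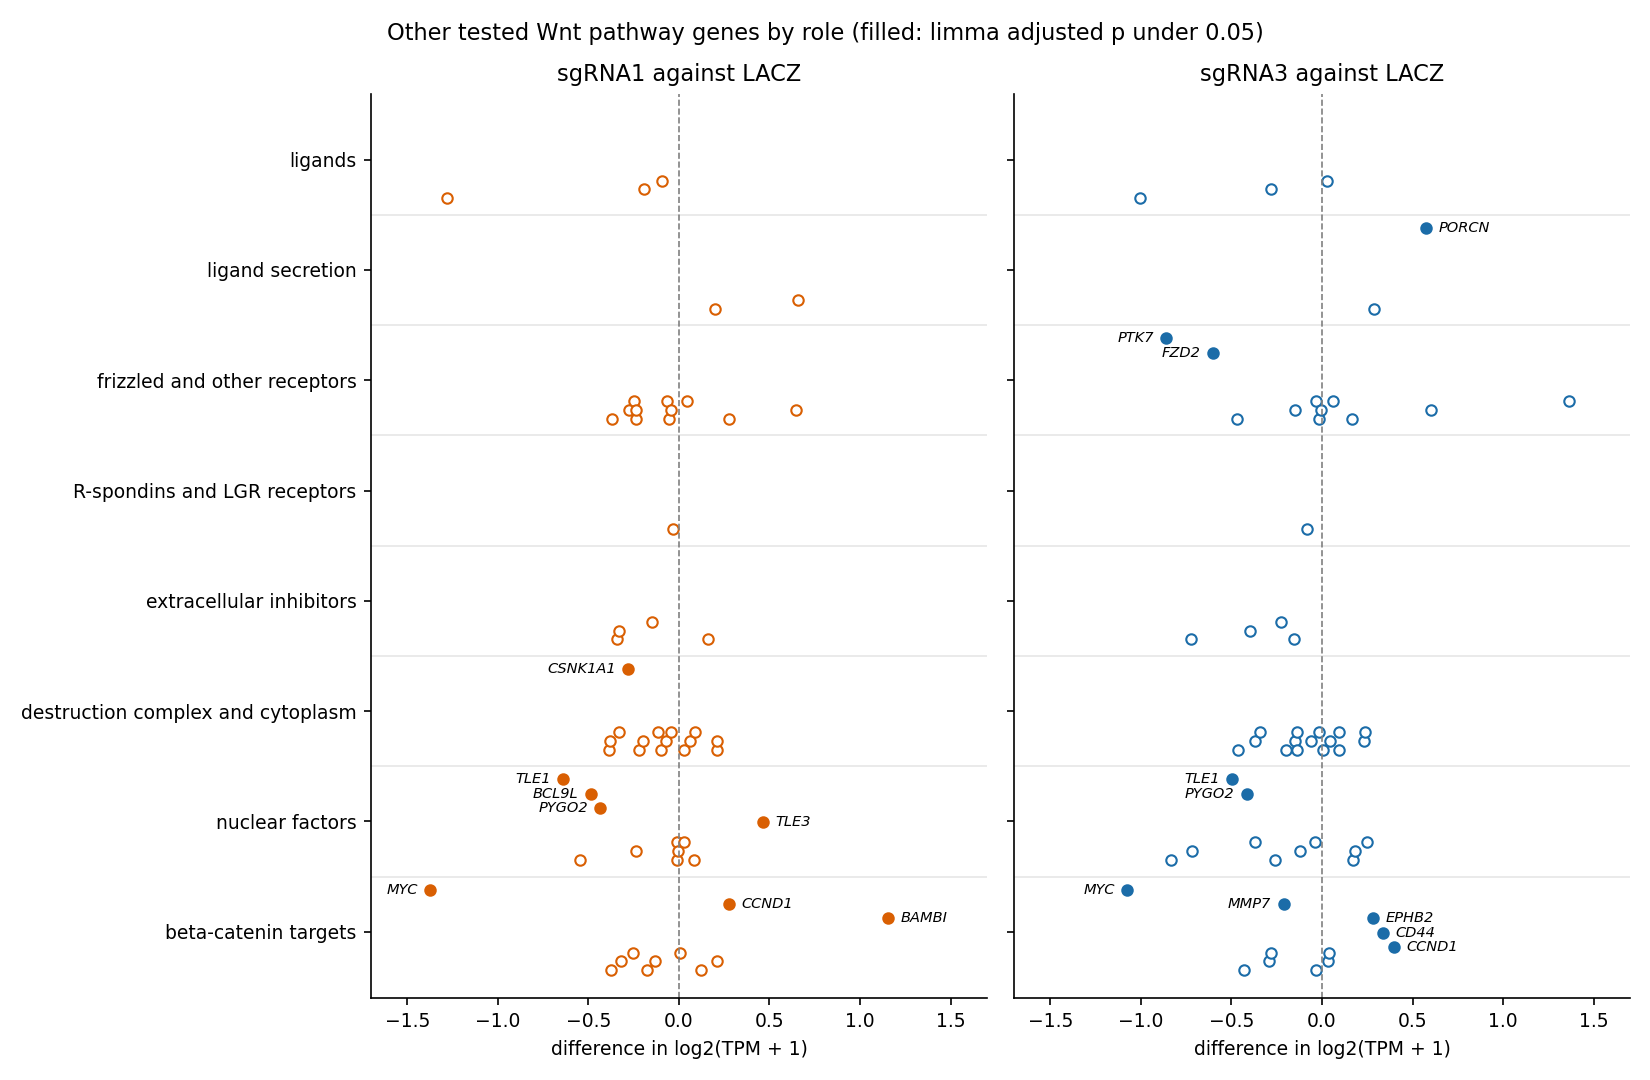
Difference in log2(TPM + 1) against LACZ of the 58 other tested Wnt pathway genes, by role, for each guide. Filled, named points passed limma's adjusted p of 0.05 and open points did not, and heights within a role carry no meaning.

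The machinery that prepares Wnt ligands for secretion is represented by PORCN, which attaches their lipid, and WLS, which carries them to the cell surface. PORCN was at 22.85 and 27.11 TPM with LACZ, 29.47 and 28.09 with sgRNA1, and 38.02 and 37.05 with sgRNA3, and it rose with sgRNA3 by 0.57 on the log2 scale (limma adjusted p 0.0316). WNT7B therefore fell and PORCN rose in the same libraries. WLS did not pass, and its libraries were uneven, with 126.41 TPM in the first sgRNA1 library and 84.85 in the second sgRNA3 library beside 39.16 to 47.30 in the other 4. Leaving out single libraries gave adjusted p of 0.0648 to 0.14 for PORCN.

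Among frizzled and other receptors, 0 of 11 tested genes passed with sgRNA1 by limma (3 at an unadjusted p under 0.05, beside 24.6% of all tested genes). With sgRNA3, 2 of the 11 fell, where 9.08% of all tested genes passed. PTK7, a Wnt coreceptor of planar polarity, was at 44.84 and 41.00 TPM with LACZ, 39.43 and 33.24 with sgRNA1, and 23.32 and 23.03 with sgRNA3 (log2 change -0.86, limma adjusted p 0.0133). FZD2, a frizzled receptor, was at 19.74 and 21.87 TPM with LACZ, 17.88 and 16.77 with sgRNA1, and 12.80 and 13.91 with sgRNA3 (log2 change -0.60, limma adjusted p 0.0284). RYK, the most abundant receptor of this list, was at 54.53 to 60.78 TPM across libraries. With single libraries left out in turn, the FZD2 call was lost each time. The PTK7 call was lost when a LACZ or sgRNA3 library was left out, and kept when an sgRNA1 library was. FZD3, named after its values were seen, was at 19.74 TPM in the first sgRNA3 library and at 2.54 or lower elsewhere.

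Of 6 R-spondin and LGR genes only LGR6 was tested, at 3.45 to 5.82 TPM, and it did not pass. Of 15 extracellular inhibitors other than DKK1, 4 were tested and by limma 0 passed with either guide (at an unadjusted p under 0.05, 0 with sgRNA1 and 1 with sgRNA3, beside 24.6% and 28.0% of all tested genes). DKK3, a relative of DKK1 that was the most abundant of them, was at 57.06 and 64.30 TPM with LACZ, 50.39 and 45.50 with sgRNA1, and 30.62 and 43.09 with sgRNA3. DKK3 did not overlap between LACZ and either guide, but the log2 change of -0.72 with sgRNA3 had a limma adjusted p of 0.0626. DKK1 and DKK3 thus stood in different orders over the groups.

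All 15 genes of the destruction complex and cytoplasm were tested. CSNK1A1, the kinase that primes beta-catenin for degradation, fell with sgRNA1 by 0.28 on the log2 scale (limma adjusted p 0.0218), from 210.05 and 211.63 TPM to 175.53 and 171.72. Leaving out single libraries ended that call (adjusted p 0.0643 to 0.116). With sgRNA3 it was at 189.04 and 194.21 TPM, and 0 of 15 passed by limma (6 at an unadjusted p under 0.05, beside 28.0% of all tested genes). CTNNB1, which encodes beta-catenin, is named after its values were seen: it had log2 differences of 0.21 with sgRNA1 and 0.04 with sgRNA3 and did not pass (limma adjusted p 0.123 and 0.699).

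Of 11 tested nuclear factors other than TCF7, 1 rose and 3 fell with sgRNA1, and 2 fell with sgRNA3. Of all tested genes, 6.0% passed with sgRNA1 and 9.08% with sgRNA3. TLE1, a corepressor that binds TCF factors, was at 46.18 and 45.13 TPM with LACZ, 30.17 and 27.76 with sgRNA1, and 33.06 and 31.15 with sgRNA3 (limma adjusted p 0.0150 and 0.0229). PYGO2, which helps beta-catenin activate genes, was at 36.22 and 35.32 TPM with LACZ, 26.56 and 25.89 with sgRNA1, and 27.38 and 25.83 with sgRNA3 (limma adjusted p 0.0315 and 0.0292). A coactivator and a corepressor were thus both lower with either guide. BCL9L, an adaptor between beta-catenin and PYGO2, fell with sgRNA1 by 0.49 on the log2 scale (limma adjusted p 0.0195) and was at -0.26 with sgRNA3 (limma adjusted p 0.0678). TLE3, a relative of TLE1, rose with sgRNA1 by 0.46 (limma adjusted p 0.0392) and was at 0.18 with sgRNA3 (limma adjusted p 0.223). TLE5, the most abundant of the list, was at 202.57 to 220.66 TPM. With single libraries left out in turn, the PYGO2, BCL9L and TLE3 calls were lost each time. Each TLE1 call was lost when a library of the groups compared was left out, and kept when a library of the other guide was. The log2 changes of PYGO2, BCL9L, TLE3 and TLE1 kept their signs.

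Of 11 tested beta-catenin targets, 2 rose and 1 fell with sgRNA1, and 3 rose and 2 fell with sgRNA3. Over all tested genes, 281 rose and 716 fell with sgRNA1 (6.0% in all), and 637 rose and 872 fell with sgRNA3 (9.08% in all); with median-of-ratios scaling these were 606 and 576, and 1042 and 788. MYC fell by 1.38 with sgRNA1 and by 1.08 with sgRNA3 on the log2 scale (limma adjusted p 0.000587 and 0.00128). CCND1, a G1 cyclin, was at 169.03 and 171.10 TPM with LACZ, 209.04 and 202.72 with sgRNA1, and 224.11 and 224.04 with sgRNA3 (limma adjusted p 0.0217 and 0.00816). CD44, a hyaluronan receptor, rose with sgRNA3 by 0.34 (limma adjusted p 0.0209). MMP7, a matrix protease and the most abundant target, was at 1662.20 and 1657.95 TPM with LACZ, 1819.51 and 1788.18 with sgRNA1, and 1432.73 and 1433.76 with sgRNA3. MMP7 fell with sgRNA3 by 0.21 (limma adjusted p 0.0128) and did not pass with sgRNA1 (0.12, limma adjusted p 0.0558). It was lower with sgRNA3 than with sgRNA1 by -0.33 (limma adjusted p 0.0174), a call that was lost with each of the 6 libraries left out in turn (adjusted p 0.077 to 0.119). The other called targets, BAMBI with sgRNA1 (1.16, limma adjusted p 0.0306) and EPHB2 with sgRNA3 (0.28, limma adjusted p 0.0390), are named after their values were seen. Both the BAMBI and the EPHB2 call were lost whichever library was left out. The MYC calls held without any single library. The CCND1 call with sgRNA1 was lost each time. Those of CCND1, CD44 and MMP7 with sgRNA3 against LACZ were lost when a LACZ or sgRNA3 library was left out. They were kept when an sgRNA1 library was left out.

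For the 3 genes that passed against LACZ, the tested genes with the most similar profile over the 6 libraries were found by the root mean square difference of centred log2(TPM + 1) values. WNT7B, whose own values spread by 0.28 around their mean on that scale, was closest to TSC22D1, SRC and N4BP2L2, at 0.046 to 0.049. DKK1, with a spread of 0.27, was closest to CAV2 and IKZF3, at 0.035 and 0.037. TCF7, with a spread of 0.40, was closest to SERPINA3 and the clone-named loci AC018529.1 and AL021068.1, at 0.044 to 0.053. With 6 libraries and 16610 genes, such a search always returns near profiles, and it describes likeness only.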

How the data were processed

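RNA-seq values came as a deposited gene table in TPM, and the authors' table is the only file used. Per the submitters' processing notes, the tools were RSEM 1.3.1, HISAT2 2.1.0 and DESeq2 1.24.0, on GRCh38. The sources used here give neither strandedness nor annotation release. Guide number linked column names (H1, H3) to sample titles (S1, S3). DESeq2 was not used here because TPM values are not counts.

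Genes with at least 1 TPM in at least 2 libraries (16610) were analysed as log2(TPM + 1), which understates changes of genes with low TPM. All 3 groups entered 1 fit in limma 3.58.1 (R 4.3.3, data.table, version 1.17.8) with an intensity trend (3 residual and 2.34 prior degrees of freedom). Tests were two-sided with Benjamini-Hochberg adjustment over all tested genes at 0.05, and the script was tested on simulated data. Gene positions are from GENCODE 29. Tables and plots used Python 3.11.15, pandas 2.3.3, numpy 2.4.6 and matplotlib 3.10.9. Of 96 other Wnt genes, 95 matched by symbol and 1 by an older symbol.

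The 10 genes and all lists were chosen with earlier results of these data known. Named were SULF2, the 10 genes and, per list, the gene highest in LACZ and up to 4 that passed against LACZ by smallest p. For each of the 10 that passed, the 3 most similar genes were named, except 1 that is not reported here. Alternatives were other pseudocounts (0.1, 5), filters, scalings, variance models, weights, sample subsets, a block for replicate number and leaving out each library, where a lone library takes its variance from the remaining groups.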

Additional observations from a re-analysis of the deposited data

Results flagged for a closer look

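DKK1 and MMP7 differed between the SULF2 guides by the test of the difference itself, in opposite directions. DKK1 was higher with sgRNA3 than with sgRNA1 by 0.60 on the log2 scale (limma adjusted p 0.0189), and MMP7 differed by -0.33 (limma adjusted p 0.0174). Leaving out any of the 6 libraries ended both calls, while the log2 differences stayed at 0.57 to 0.62 for DKK1 and -0.34 to -0.32 for MMP7. Calls between the guides among all tested genes fell in each of those fits too. Each call passed in 7 of 17 alternatives. SULF2 was lower with both guides, and it overlapped between the guide groups (log2 difference -0.14, limma adjusted p 0.754). The alternatives were not run for SULF2.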

How the results depend on the processing

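Most calls rested on all 6 libraries and on the shared variance estimate. Of the 10 genes, 1 passed with sgRNA1, and 0 did with no intensity trend, where DKK1 had an adjusted p of 0.0505; leaving out 1 library gave 1 in every case. With sgRNA3, 2 passed, and 1 did with no filter on low values (WNT7B), 1 with no intensity trend (TCF7) and 1 when only the compared groups were fitted (WNT7B); leaving out 1 library gave 0 to 2. Between the guides, 1 passed, and 0 did with no filter, with no intensity trend, when only the compared groups were fitted, or with any library left out (0 to 0). With both guides 0 passed. Testing the mean of the guides against LACZ called 3 (DKK1, TCF7 and WNT7B), where 1803 of all 16610 tested genes passed. Of these, DKK1 was lower with sgRNA1 only, and its sgRNA3 mean was 103.2% of LACZ. Other pathway genes numbered 8 with sgRNA1, and 1 with no trend, 2 when only the compared groups were fitted and 1 to 2 without a library. With sgRNA3 they numbered 10, and 5 with no filter, 2 with no trend, 6 when only the compared groups were fitted and 1 to 6 without a library. Counts over all tested genes fell under these settings too, from 997 with sgRNA1, 1509 with sgRNA3 and 96 between the guides. They were 295, 557 and 12 with no trend, and 311, 833 and 2 when only the compared groups were fitted. With no filter they were 542, 785 and 0 of 29500 genes. In every fit with a library left out, counts over all tested genes were also lower in each comparison, so lost calls there were not particular to the Wnt genes. Why any of these counts changed was not tested.

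Replicate numbers did not pair the libraries (correlations of same-numbered deviations -0.018, 0.006 and -0.031). With a replicate block, calls among the 10 genes were 1 with sgRNA1, 0 with sgRNA3, 0 between the guides and 0 with both guides. The block left 2 other pathway genes with sgRNA1 and 5 with sgRNA3, and calls among all genes went from 997 to 377, 1509 to 561 and 96 to 0.

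Signs changed only in differences that never passed. WNT10A was 0.0734 (median-of-ratios scaling) and 0.0925 (quantile normalization) with sgRNA1, and -0.0002 and -0.0283 between the guides. LRP6 was 0.0509 and 0.104 with sgRNA1 under these scalings. RNF43 with sgRNA3 was 0.0223 after quantile normalization. ZNRF3 with sgRNA3 was 0.0006 with a pseudocount of 0.1, and 0.0446 and 0.122 under the scalings. Without a library, WNT10A ran from -0.15 to 0.14 with sgRNA1, -0.032 to 0.072 with sgRNA3 and -0.12 to 0.17 between the guides. With sgRNA1, LRP5 ran from -0.0761 to 0.0907, LRP6 from -0.13 to 0.083, LGR4 from -0.0469 to 0.12, RNF43 from -0.12 to 0.18 and ZNRF3 from -0.35 to 0.0647. RNF43 ran from -0.26 to 0.0348 between the guides and ZNRF3 from -0.21 to 0.21 with sgRNA3. AXIN2 gave no value with a filter of 5 TPM. Higher calls among all genes were 281 of 997 with sgRNA1 and 637 of 1509 with sgRNA3, against 606 of 1182 and 1042 of 1830 with median-of-ratios scaling. Depth is unknown and limits genes at a few TPM, such as AXIN2 and ZNRF3.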
